A study of Homo sapiens with 6 samples.

Results

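The genes described here encode growth factors of the epidermal growth factor (EGF) family, their ERBB receptor tyrosine kinases and LRIG membrane proteins. The set holds 10 genes of the 19063 that carry a single current symbol on the array: the ligands AREG, EREG, HBEGF, TGFA and BTC, the receptors EGFR, ERBB2 and ERBB3, and LRIG1 and LRIG3. Every non-control probe set annotated to one of these symbols was taken, which gave 12 probe sets of the 29183 tested. AREG had 2 probe sets, both assigned through its RefSeq transcript. LRIG3 had a probe set of its own and shared another with ROS1 and SLC34A2. The genes were proposed with the differences between the plasmids on these arrays in view. Their differences are therefore given as a description, with no test.

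The cells were HEK293T, which derive from human embryonic kidney and express the large T antigen of SV40. Both groups were transfected with the pNTAP-2×flag plasmid. In the VRTN group the plasmid held the coding sequence of pig VRTN (vertnin, known from genetic studies of vertebral number in that species), and in the control group it held no insert. Total RNA was taken 24 hours after transfection, and each group had 3 biological replicates, with 1 Affymetrix Human Gene 1.0 ST array each. The share of cells that took up a plasmid and the amount of VRTN protein are not given in the sources used here, and the foreign protein was made from a plasmid rather than from the cells' own gene.

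Ligands of the EGF family are made as membrane-anchored precursors and are released by cell-surface proteases such as ADAM17. A ligand brings ERBB receptors together in pairs, which phosphorylate each other and start the RAS–ERK and PI3K–AKT cascades. ERBB2 binds no known ligand and ERBB3 has little kinase activity of its own, so both signal mainly in pairs with other members. LRIG1 lowers the level of ERBB receptors at the cell surface, and the role of LRIG3 is less settled. AREG, EREG and BTC lie in one cluster on chromosome 4 together with EPGN, a further ligand of the family.

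The windows of 250 bases before the annotated start are shown for the 3 clustered ligands, of which AREG differed between the plasmids and its neighbours did not stand apart, and for LRIG3, which differed in the other direction. They are RefSeq sequences of build GRCh38.p14, written 5′ to 3′ on the strand of the gene: EREG at chr4:74364895-74365144 on the plus strand, AREG at chr4:74444886-74445135 on the plus strand, BTC at chr4:74794524-74794773 on the minus strand and LRIG3 at chr12:58920505-58920754 on the minus strand. Capitals mark matches on either strand to the TATA box TATAAA, the cAMP response element TGACGTCA, the AP-1 element TGANTCA, the paired heat shock units GAANNTTC and the GC box GGGCGG.
EREG: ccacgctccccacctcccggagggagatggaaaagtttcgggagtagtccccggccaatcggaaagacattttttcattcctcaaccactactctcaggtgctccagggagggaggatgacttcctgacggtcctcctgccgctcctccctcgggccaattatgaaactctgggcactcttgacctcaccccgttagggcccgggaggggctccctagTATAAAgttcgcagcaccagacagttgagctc
AREG: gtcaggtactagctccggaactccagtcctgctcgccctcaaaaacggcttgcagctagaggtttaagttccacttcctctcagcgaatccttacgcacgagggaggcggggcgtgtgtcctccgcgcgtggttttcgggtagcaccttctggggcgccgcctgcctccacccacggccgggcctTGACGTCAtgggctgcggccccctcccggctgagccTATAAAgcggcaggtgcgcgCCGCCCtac
BTC: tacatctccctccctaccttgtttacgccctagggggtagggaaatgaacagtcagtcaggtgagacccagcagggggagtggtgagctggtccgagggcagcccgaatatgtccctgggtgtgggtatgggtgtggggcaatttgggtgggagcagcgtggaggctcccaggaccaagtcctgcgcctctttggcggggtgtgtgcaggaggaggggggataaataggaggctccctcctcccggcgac
LRIG3: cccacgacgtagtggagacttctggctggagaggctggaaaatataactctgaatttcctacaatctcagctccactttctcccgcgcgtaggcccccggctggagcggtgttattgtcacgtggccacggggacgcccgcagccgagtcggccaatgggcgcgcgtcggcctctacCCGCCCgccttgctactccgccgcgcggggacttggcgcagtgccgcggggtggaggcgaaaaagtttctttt

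AREG held the cAMP response element, with its first base 65 bases before the start, a TATA box at 29 bases and a GC box at 9 bases. EREG held a TATA box at 32 bases and none of the other motifs. LRIG3 held a single GC box at 73 bases, and BTC held none of the 5 motifs. The full cAMP response element occurred in 1.65% of the 35116 RefSeq promoter windows of this length, the TATA box in 10.7% and the GC box in 42.6%. The AP-1 element occurred in 6.57% and the paired heat shock units in 5.78%. Promoter windows at the gene start were matched for 9 of the 10 genes, all but ERBB3. Among the windows not shown, those of HBEGF, TGFA, EGFR and LRIG1 held GC boxes and no other motif. The ERBB2 window held an AP-1 element and paired heat shock units. A match describes letters in the window and does not show that a factor binds there.

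Each value below is a log2 signal, so a difference of 1 is a doubling. The median over the tested probe sets was 6.43 to 6.47 on the 6 arrays. Negative control probe sets were taken by their label, and what they match was not checked. Their median was 5.36, 5.92 and 6.13 on empty vector arrays 1 to 3. On VRTN arrays 1 to 3 it was 5.59, 5.90 and 6.06. It is used as a mark of dim signal, not as a detection limit, and no probe set's level is ranked against another's. The human VRTN probe set was at 6.18 ± 0.10 (SD, n = 3) with the VRTN plasmid and at 5.10 ± 0.11 (SD, n = 3) without it, and how well its probes bind the pig sequence was not measured. It was among the 4 of 29183 probe sets (0.0137%) with a limma adjusted p under 0.05 (for VRTN adjusted p = 0.0194), which hold none of the 10 genes. A block for the replicate number raised that number to 8. With single arrays dropped it was 1 (VRTN array 1 or 2, or control array 2 or 3) or 2 (VRTN array 3), and 4 with control array 1 dropped. Of 16 markers of HEK293 cells, 14 lay above the negative control median on all 6 arrays. NEFM and NEFH did so on 1 array only. The summed log2 level of that list was 12.83 to 12.89 with the empty vector and 12.83 to 12.91 with VRTN, and 0 of the 16 passed an adjusted p of 0.05 in limma. At an unadjusted p under 0.05, 3 of them differed in limma: KRT8, a keratin, at 1.06 (SE 0.14, adjusted p = 0.231), ENO2, an enolase, at 0.56 (SE 0.17, adjusted p = 0.786) and LIN28B, an RNA-binding protein, at -0.22 (SE 0.079, adjusted p = 0.841). The part of these in the AREG and LRIG3 differences was not tested. The leukocyte markers PTPRC, CD3E and LYZ, the fibroblast markers DCN and LUM, the hepatocyte markers ALB and SERPINA1 and the endothelial markers PECAM1, VWF and KDR lay below it on all 6. The summed log2 level of the leukocyte list (6 genes) was 7.80 to 7.92 with the empty vector and 7.87 to 7.96 with VRTN. It was 8.91 to 9.02 and 9.01 to 9.09 for fibroblasts (7 genes), 7.61 to 7.72 and 7.55 to 7.77 for hepatocytes (4 genes), and 6.91 to 7.1999 and 6.96 to 7.07 for endothelium (4 genes). The bacterial spikes of the hybridisation mix were 0.35 higher on the VRTN arrays, and their part in the differences below was not tested.

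Among the 10 genes, AREG was higher and LRIG3 lower with VRTN, and the rest differed little. In 4 of the 12 probe sets the 3 VRTN arrays did not overlap the 3 empty vector arrays, where 11.3% of all tested probe sets had groups that did not overlap. VRTN was the higher group for both AREG probe sets and for ERBB3 (5.39% of all probe sets lay apart in that direction) and the lower group for LRIG3 (5.92%). Since the genes were chosen on this contrast, nothing is read from these shares. The other 9 probe sets, with ERBB3 among them, had differences of at most 0.16 in size, as did 86.0% of all probe sets. The median difference over the 10 genes was -0.00093, and over all tested probe sets it was -0.0049. Without VRTN replicate 2 the number was 7 of the 12, against 17.6% of all probe sets.

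**Figure D1:**
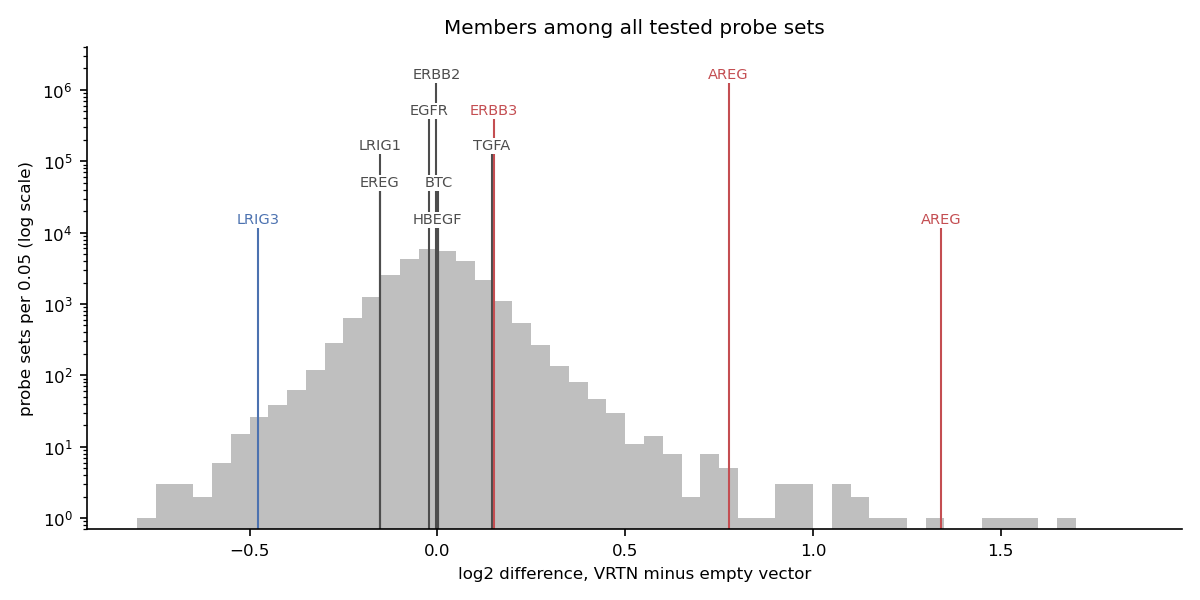
The histogram shows the log2 difference (VRTN minus empty vector) of the 29183 tested probe sets, with their number per bin of 0.05 on a log scale, and lines mark the 11 probe sets of the 10 genes that carry 1 symbol (red: all VRTN arrays higher, blue: all VRTN arrays lower, grey: the groups overlap). The AREG lines stand at 0.78 and 1.34 in the upper tail, LRIG3 stands at -0.48 in the lower tail, and the rest stand between -0.15 and 0.15.

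AREG encodes amphiregulin, a low-affinity ligand of EGFR that carries a heparin-binding stretch. Its probe set 8095736 read 5.58, 5.08 and 5.41 on empty vector arrays 1 to 3 and 6.24, 6.23 and 5.93 on VRTN arrays 1 to 3. Every VRTN array lay above every control array, and the closest pair was VRTN replicate 3 and empty vector replicate 1. The means were 6.13 ± 0.17 and 5.36 ± 0.26 (SD, n = 3), a difference of 0.78 or 1.71-fold. In all, 21 of the 29183 probe sets had a difference at least as high. AREG was chosen on this contrast, so nothing is read from that count.

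The second AREG probe set, 8095744, read 4.17, 3.76 and 3.52 with the empty vector and 5.26, 5.34 and 4.86 with VRTN. The groups were again apart, here by more than the spread within either of them. The means were 5.16 ± 0.26 and 3.81 ± 0.33 (SD, n = 3), a difference of 1.34. All 6 arrays lay below the negative control median here, so this difference gives no reliable fold and its size is not ranked. Both probe sets match the same AREG transcript, so they are 2 readings of the same gene and not independent support. They point the same way and differ in size.

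AREG signal was dim throughout. The signal at 8095736 lay above the negative control median on VRTN arrays 1 and 2 and on empty vector array 1, and below it on the other 3. AREG was also variable: the SD within groups was larger than for 90.4% of probe sets at 8095736 and 96.1% at 8095744. The size of the AREG difference is therefore uncertain. In the same-numbered pairs it was 0.65, 1.15 and 0.52 at 8095736 and 1.09, 1.59 and 1.35 at 8095744. Since the groups did not overlap, the pairs had to share a direction, and nothing is read from that. Over all tested probe sets, 34.9% had the same direction in all 3 pairs. With each array left out in turn the AREG difference stayed between 0.64 and 0.89 at 8095736 and between 1.19 and 1.52 at 8095744. In a culture, more cells with AREG RNA and more AREG RNA per cell cannot be told apart.

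**Figure D2:**
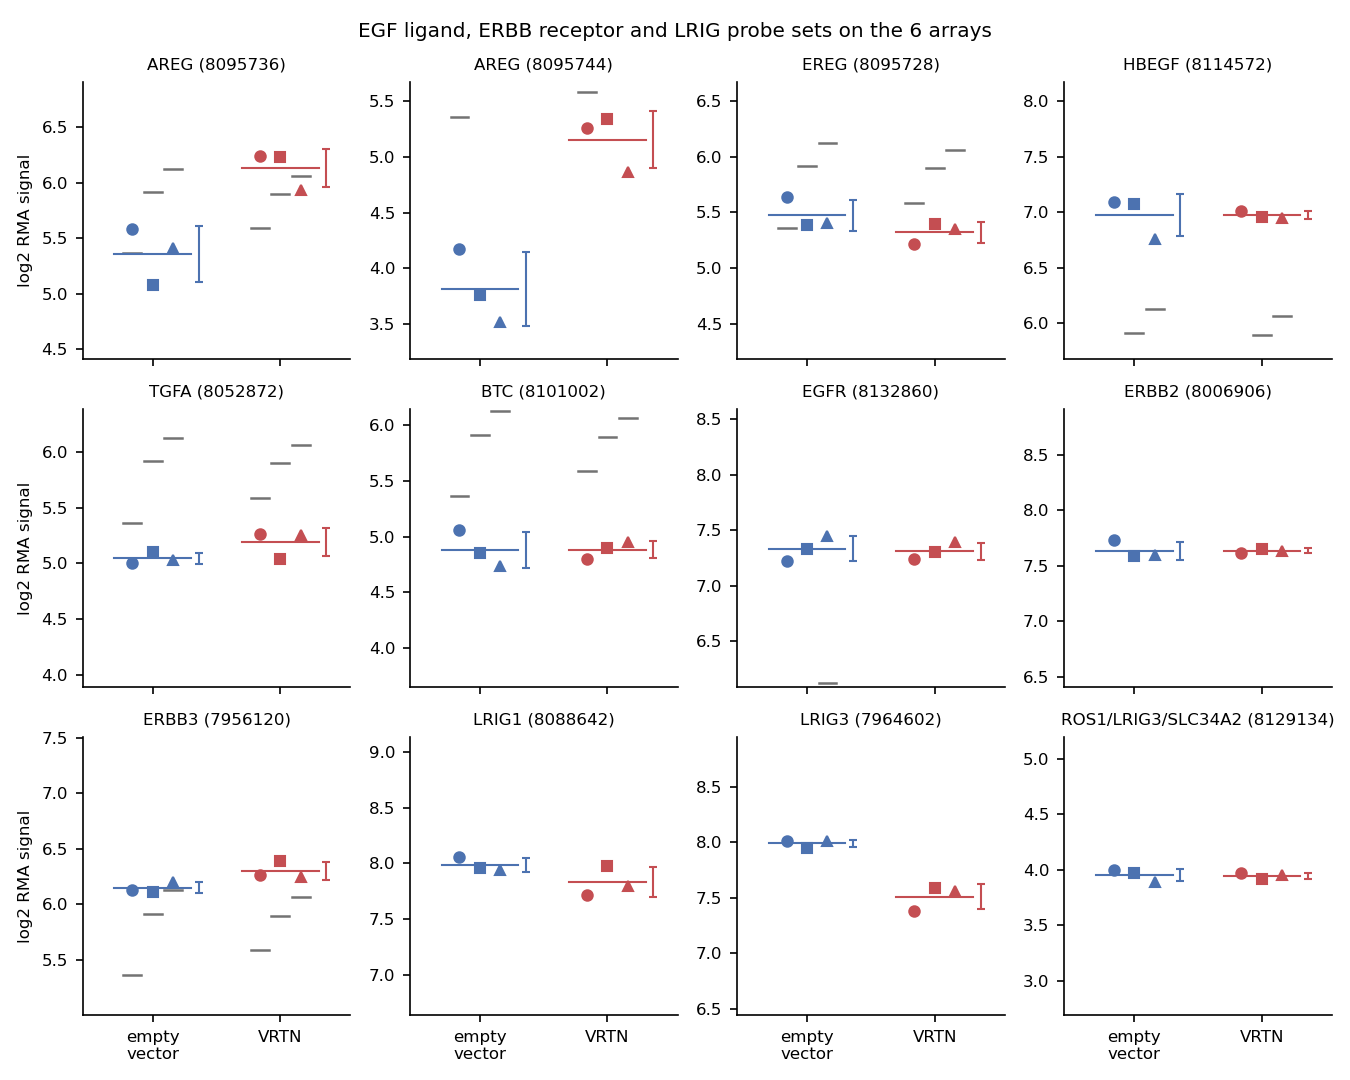
Each panel shows a probe set, with the log2 RMA signal on the vertical axis over the same range of 2.5 units. Blue points are the 3 empty vector arrays and red points the 3 VRTN arrays, with circles, squares and triangles for replicate numbers 1, 2 and 3, long lines for group means, bars for ± 1 SD (n = 3), and short grey lines for the negative control median of each array where it falls inside the panel. The red points lie above the blue points for both AREG probe sets and below them for LRIG3 (7964602), and most other panels are flat.

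The other ligands among the 10 genes did not follow AREG. EGF, a ligand outside the set, is described with the wider pathway. EREG encodes epiregulin, which binds EGFR and ERBB4. It read 5.64, 5.39 and 5.40 with the empty vector and 5.22, 5.40 and 5.35 with VRTN, so the groups overlapped. Its difference of -0.15 came mostly from pair 1, at -0.42, while pairs 2 and 3 were at 0.01 and -0.05.

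HBEGF, the heparin-binding ligand that also serves as the diphtheria toxin receptor, lay above the negative control median on all 6 arrays. It read 7.09, 7.07 and 6.76 with the empty vector and 7.01, 6.96 and 6.95 with VRTN. The lowest array and the highest array were both controls, and the difference was 0.00062.

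TGFA encodes transforming growth factor alpha, a close relative of EGF. It read 5.003, 5.10 and 5.03 with the empty vector and 5.27, 5.04 and 5.26 with VRTN, a difference of 0.15 with overlapping groups. VRTN replicate 2 lay among the controls and the other VRTN arrays above them. BTC, betacellulin, read 5.06, 4.85 and 4.73 with the empty vector and 4.80, 4.90 and 4.95 with VRTN, a difference of 0.0026. TGFA and BTC lay below the negative control median on all 6 arrays, so a small change in either could go unseen.

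The ligands of the chromosome 4 cluster were set beside the protein-coding genes around them, in the gene order of the RefSeq table. This view was chosen after the values were seen. AREG stood between EREG and BTC, with EPGN beyond EREG. EPGN, epigen, had a log2 difference of -0.0034 (SE 0.077, limma adjusted p = 1.00) and lay below the negative control median on all arrays. On the EPGN side lie MTHFD2L and the chemokine genes CXCL2, CXCL3 and CXCL5, at -0.11, 0.14, -0.016 and -0.14, none of them past the test. On the BTC side the next gene was PARM1, a mucin-like membrane protein, which read 7.41, 7.54 and 7.70 with the empty vector and 7.77, 7.77 and 7.88 with VRTN. All VRTN arrays of PARM1 lay above the controls, its difference was 0.26 (SE 0.088), and it did not pass in limma (adjusted p = 0.825). RCHY1 and THAP6 beyond it were at -0.11 and -0.029. AREG had the largest difference of the 13 genes, but it was chosen on this contrast, so nothing is read from that rank. Its immediate neighbours EREG and BTC overlapped between the groups.

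**Figure D3:**
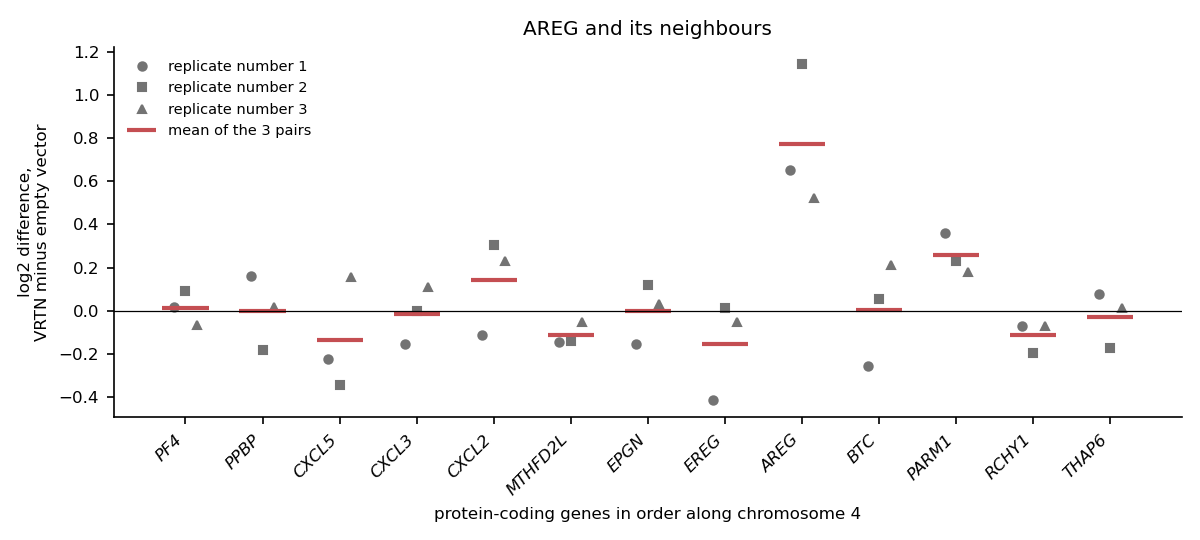
The 13 protein-coding genes around AREG are shown in their order along chromosome 4, not to scale, with the log2 difference (VRTN minus empty vector) on the vertical axis. Grey symbols are the 3 same-numbered pairs and red lines their means. AREG stands at 0.78 with all pairs above 0.5, and PARM1 at 0.26 with all pairs above 0.

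The receptor probe sets lay above the negative control median on all 6 arrays and hardly moved. EGFR, the receptor for AREG, HBEGF, TGFA and EGF, read 7.23, 7.33 and 7.45 with the empty vector and 7.24, 7.30 and 7.39 with VRTN. Same-numbered arrays were close to each other, and the pair differences were 0.013, -0.022 and -0.058. ERBB2, the shared partner of the other receptors, read 7.73, 7.59 and 7.59 with the empty vector and 7.61, 7.65 and 7.64 with VRTN. The 2 groups overlapped and the difference was -0.0025.

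ERBB3, a neuregulin receptor, read 6.13, 6.12 and 6.20 with the empty vector and 6.26, 6.39 and 6.25 with VRTN. Its groups did not overlap, but VRTN replicate 3 and empty vector replicate 3 were only 0.042 apart. The means were 6.30 ± 0.08 and 6.15 ± 0.05 (SD, n = 3), a difference of 0.15 or 1.11-fold.

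LRIG3 was the gene of the set with the largest lower value. Its own probe set, 7964602, read 8.01, 7.95 and 8.01 with the empty vector and 7.38, 7.59 and 7.56 with VRTN. The controls lay close together and all VRTN arrays lay well below them. The means were 7.51 ± 0.11 and 7.99 ± 0.03 (SD, n = 3), a difference of -0.48, which is 1.39-fold lower. The difference was -0.63, -0.37 and -0.44 in the same-numbered pairs and between -0.52 and -0.41 with each array left out. Among the 29183 probe sets, 43 had a difference at least as low. LRIG3 was chosen on this contrast too, so nothing is read from that count. Unlike AREG, LRIG3 lay above the negative control median on all 6 arrays.

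The probe set that LRIG3 shares with ROS1 and SLC34A2, 8129134, read 3.998, 3.97 and 3.89 with the empty vector and 3.97, 3.92 and 3.96 with VRTN. It was flat, at -0.0071, and lay below the negative control median on all arrays. The transcripts listed first for it are those of ROS1, a receptor kinase, so it is no second reading of LRIG3 alone.

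LRIG1 read 8.05, 7.96 and 7.94 with the empty vector and 7.72, 7.98 and 7.80 with VRTN. VRTN replicate 2 lay among the controls and the other VRTN arrays below them, so the groups overlapped. Its difference was -0.15, with -0.34, 0.019 and -0.14 in the pairs.

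The wider pathway was followed in 138 genes of 8 lists, of which 137 were measured. In limma 0 passed an adjusted p of 0.05, and at an unadjusted p under 0.05 there were 3 higher and 2 lower. Over the 19063 genes with a single symbol the shares at that unadjusted p were 2.73% higher and 3.18% lower, so the counts in the lists are near the background. Over these lists 68 genes had a positive and 69 a negative difference, with a median of -0.0015 beside -0.0084 over all genes with a single symbol. The 5 genes at an unadjusted p under 0.05 became 13 with the replicate number as a block, where the share over all genes with a single symbol was 12.1% against 5.91% without it. They became 1 when VRTN array 1 or VRTN array 2 was left out, 10 when VRTN array 3 was, and 8 when control array 3 was.

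**Figure D4:**
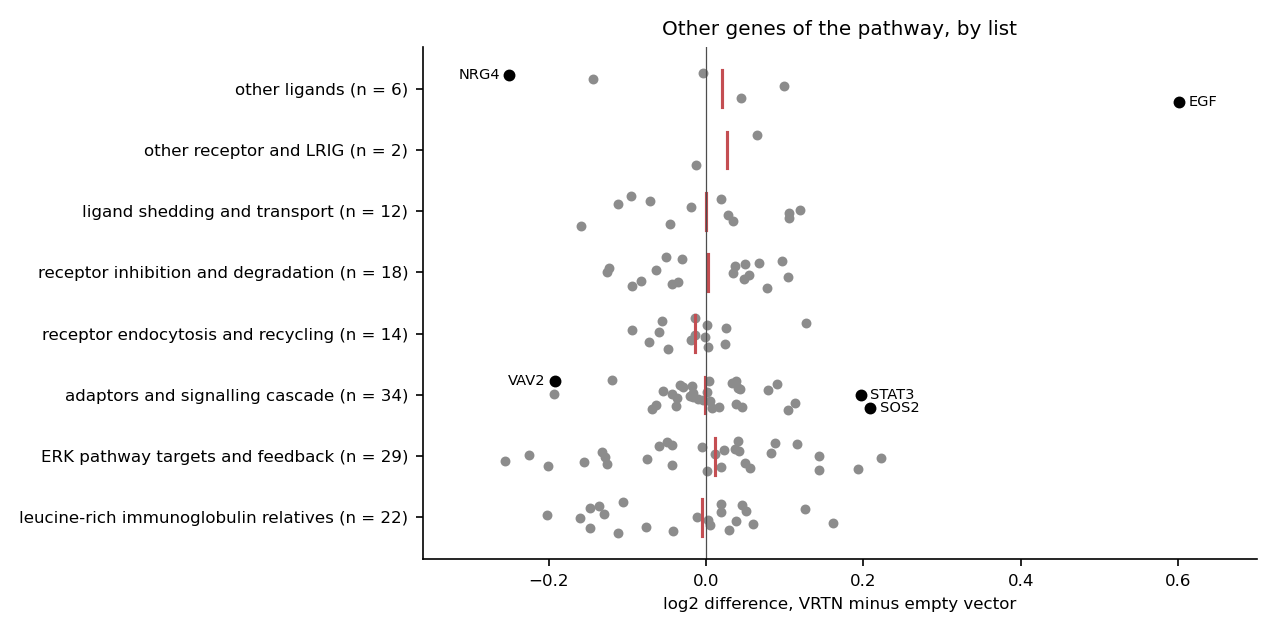
Each point is a gene of a pathway list, placed by its log2 difference (VRTN minus empty vector), black and named where the unadjusted limma p was under 0.05. Red lines are list medians, the vertical scatter within a row has no meaning, and n is the number of genes measured. EGF stands apart at 0.60, and the list medians lie between -0.014 and 0.026.

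EGF, the ligand that names the family, had the largest difference among the 137. It read 5.07, 4.89 and 4.93 with the empty vector and 5.71, 5.58 and 5.40 with VRTN, so the groups were apart. The means were 4.96 and 5.56, a difference of 0.60 (SE 0.097, 95% interval 0.38 to 0.83). EGF did not pass in limma over all probe sets (adjusted p = 0.321). The gene was dim, above the negative control median only on VRTN array 1, so the size of its difference is uncertain. NRG4, a ligand of ERBB4, was at -0.25 (SE 0.097, adjusted p = 0.853). NRG1 and NRG3, neuregulins that bind ERBB3 and ERBB4 or ERBB4 alone, were at -0.14 and 0.099, and NRG2 was at 0.044. None of these passed.

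ERBB4, the remaining receptor, was at -0.013 (SE 0.11) and lay below the negative control median on all arrays. LRIG2, the remaining LRIG gene, was at 0.065 (SE 0.22). Of the 12 genes for ligand shedding and transport, 6 had a positive and 6 a negative difference. By smallest p in each direction these were the proteases ADAM9 at -0.11 and ADAM10 at -0.095, and the protease ADAM19 at 0.12 and the ADAM17 partner RHBDF2 at 0.11. The main EGFR-ligand sheddase ADAM17 was at 0.019, with a 95% interval of -0.18 to 0.22. Of the 18 genes for receptor inhibition and degradation, 9 were positive and 9 negative. The adaptor CD2AP and the phosphatase PTPN2 were at -0.12 and -0.13, the ubiquitin ligase CBL at 0.10 and SOCS5 at 0.097. ERRFI1, a feedback inhibitor of EGFR, was at -0.044. Of the 14 genes for receptor endocytosis and recycling, 5 were positive and 9 negative, from USP8, a deubiquitinase, at -0.094 to the sorting protein STAM at 0.13, with the deubiquitinase STAMBP at -0.072 and the late endosome GTPase RAB7A at 0.025. No gene of these lists passed the adjusted test or had an unadjusted p under 0.05.

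The signalling cascade held 34 measured genes, with 17 on each side of 0. The exchange factor VAV2 was at -0.19 (SE 0.064, adjusted p = 0.819 in limma), the RAS exchange factor SOS2 at 0.21 (SE 0.077, adjusted p = 0.853) and the transcription factor STAT3 at 0.20 (SE 0.084, adjusted p = 0.892). These 3 were the genes of the list at an unadjusted p under 0.05, and the kinase subunit PIK3CA was at -0.19. Of 29 targets and feedback genes of the ERK pathway, 16 were positive and 13 negative, and none had an unadjusted p under 0.05 in the fit without a block. In limma with the replicate block 5 of the 29 did, beside 12.1% of all genes with a single symbol. With that block 0 passed an adjusted p of 0.05. The phosphatase DUSP4 was at -0.26 (SE 0.12), the feedback inhibitor SPRY2 at -0.13 (SE 0.063), the phosphatase DUSP5 at 0.14 (SE 0.072) and the immediate early factor EGR1 at 0.22 (SE 0.14). Of 22 membrane proteins with leucine-rich repeats related to the LRIG proteins, 11 were positive and 11 negative. FLRT3 and LINGO4 were at -0.20 and -0.15, and LINGO3 and LINGO2 at 0.16 and 0.13.

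The replicate numbers gave a comparison that the choice of genes did not use, since each number holds an array of each plasmid. In a limma fit with plasmid and number, 300 of the 29183 probe sets differed between the numbers at an adjusted p of 0.05, which is 1.03%. None of the 12 probe sets of the set did. At an unadjusted p under 0.05 there was 1, against 20.9% of all probe sets. It was AREG 8095744, whose mean over both plasmids was 4.71, 4.55 and 4.19 for numbers 1, 2 and 3 (adjusted p = 0.139). EGFR was at 7.23, 7.32 and 7.42 (adjusted p = 0.299). LRIG3, at 7.70, 7.77 and 7.79, and ERBB2, at 7.67, 7.62 and 7.61, varied less (adjusted p = 0.751 and 0.860). The negative control median also differed between the numbers, and its part in these values was not tested. Among the other pathway genes 0 of 137 passed and 35 had an unadjusted p under 0.05. LRIG2 was at 8.57, 9.12 and 9.24 (adjusted p = 0.0622), more than its difference between plasmids, and was named here after its values were seen.

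Across the 6 arrays the genes most like AREG (8095736) by Pearson's r were TSPAN16-AS1 at 0.992, L1CAM at 0.992 and CPE at 0.991. For LRIG3 they were DNAAF1 at 0.997 and RAI14 at 0.992. For EREG, the third gene by size of difference, they were CCDC107 at 0.996, HEPHL1 at 0.993 and KRT13 at 0.993. These values describe 6 points that share the difference between plasmids and the replicate numbers, out of 19063 genes searched. At r of at least 0.95 there were 61 genes for AREG, 53 for LRIG3 and 39 for EREG. The differences of the genes like AREG were smaller than its own: 0.43 for TSPAN16-AS1, 0.44 for L1CAM and 0.22 for CPE.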

How the data were processed

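The authors deposited log2 values, 1 per probe set and array, made by RMA at default gene-level settings per the file headers. The submitters' processing notes give Affymetrix Expression Console 1.0 as the software, and the genome build is not given in the sources used here. RMA equalises the distributions of the arrays, so a change common to most transcripts is lost. A second deposited table held the same values within 1e-05. The 4114 control probe sets were left out. Symbols came from the platform annotation, updated through a RefSeq gene table of GRCh38.p14 used for names and gene order, and 732 probe sets without an entry there, both of AREG among them, were named by RefSeq transcript accession. A gene with several probe sets was represented by the one with the highest mean.

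The plasmids and the replicate numbers were tested in limma 3.58.1 under R 4.3.3 (lmFit, eBayes, two-sided, Benjamini-Hochberg over all 29183 probe sets, threshold 0.05), with no filter on dim probe sets. The fits were tested on simulated data, in 3 runs with 200 changed probe sets each. The plasmid fit recovered 91% of 2-fold and 98% of 4-fold changes, with 6 to 10 false calls per run. Its simulated arrays had independent noise and no effect of the replicate number. The runs therefore do not show how that fit behaves where such an effect is present. The 200 planted changes also ease the Benjamini-Hochberg adjustment, whereas 4 probe sets passed in the data. The recovered shares therefore do not tell how often a change of that size would be called here. KRT8, at a log2 difference of 1.06, did not pass in limma (adjusted p = 0.231). The genes, the pathway lists, the marker lists and the motifs were chosen with earlier results of these data known. Named were all members, per list up to 2 genes in each direction by smallest p, VRTN, and the 3 genes most like each of the 3 members with the largest difference (1 of these is not reported here), and ADAM17, ERRFI1, NRG2, EPGN and the neighbours of AREG were added for their role or place. Deviations of same-numbered arrays from their group means correlated at 0.54, 0.16 and 0.50 across probe sets. Those of differently numbered arrays correlated at -0.49 to 0.072. The numbers were therefore used to form the same-numbered pairs and the replicate block, but the main plasmid fit had no term for them. The labels do not say that same-numbered arrays were handled together. The number of arrays limits the precision. Other steps used Python 3.11.15 and pandas 2.3.3.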

Additional observations from a re-analysis of the deposited data

Results flagged for a closer look

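The bacterial hybridisation spikes, which no comparison above uses, were 0.35 higher on the VRTN arrays, at 10.60 ± 0.10 against 10.24 ± 0.19 (SD, n = 3; mean over 9 probe sets). The groups did not overlap. A two-sided exact permutation test gave p = 0.1, which no arrangement of 6 arrays can undercut. The poly(A) spikes, added before labelling, differed by -0.045 (exact permutation p = 0.7).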

How the results depend on the processing

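The 4 calls over all probe sets became 14 with array weights, 8 with the replicate block, 0 without the variance moderation (1769 at an unadjusted p under 0.05 by ordinary least squares) and 1 to 4 with each array left out. The pathway genes at an unadjusted p under 0.05, 5 in limma, became 12 with array weights, 13 with the replicate block, 3 of 108 without the dimmest 40 percent, and 1 to 10 with each array left out, and 0 passed an adjusted p of 0.05 in any of these settings. The adjusted p of EGF ranged from 0.0536 with array weights to 1.00 without VRTN replicate 2, and was 0.140 with the replicate block, which changed no call of a named pathway gene at the adjusted threshold. Of the 12 probe sets, 3 had groups that did not overlap with quantile normalization again (11.4% of all probe sets) and with cyclic loess (11.3%), and 4 to 7 with each array left out, where the share of all probe sets was 17.6% to 24.0%. The differences between replicate numbers, 300 probe sets, became 2500 without the dimmest 40 percent, 3387 with a trended and robust prior and 0 without moderation (3885 at an unadjusted p under 0.05), and the cause was not tested. The sign of each difference was followed under 10 alternatives (second table, quantile normalization, median centring, cyclic loess and 6 arrays left out in turn). AREG stayed positive and LRIG3, at its own probe set, negative in each. Their groups did not overlap, so leaving out an array could not turn their sign. The second table held the same values and could not turn it either. Both genes were also chosen on this contrast, so nothing is read from the kept signs. The sign of HBEGF turned in 4 of the 10, of BTC in 7, of EGFR in 2, of ERBB2 in 4 and of probe set 8129134 in 3, all with small differences. With its probe sets averaged, AREG was at 1.06 in place of 0.78, a value that rests partly on the probe set below the negative control median on all arrays. With 3 arrays per group and dim signal, small differences of AREG, EREG, TGFA, BTC and EGF cannot be resolved.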
